A study of Canis lupus familiaris with 40 samples.

Results

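Monocytes sorted from the blood of tumor-bearing dogs (C MONOs) were compared with monocytes of healthy dogs (H MONOs). All libraries with the sample type C Mono or H Mono were taken, which gave 8 C MONO and 3 H MONO libraries, 11 of the 40 in the series. The study sequenced sorted myeloid cells of canine blood to describe myeloid-derived suppressor cells beside conventional neutrophils (PMNs) and monocytes. C MONO donors were recruited as cancer patients and H MONO donors as controls without clinically significant findings, and no treatment of the sorted cells was described. Both groups were gated alike, as CD5−CD21−MHCII+CD11b+CD14+ cells of the mononuclear layer of a density gradient, and their RNA was made into full-length cDNA with Smart-seq2. Tumor type, age, breed and sex of the donors were not analysed here, and the labels tie no library to a named dog. The study describes the samples of a population as coming from different dogs, so the p-values refer to the spread between dogs and between their libraries together.

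Monocytes are circulating phagocytes that leave the blood and become macrophages or dendritic cells in tissue. CD14, on which they were sorted, is a co-receptor for bacterial lipopolysaccharide, and CD11b is an integrin subunit used in adhesion and uptake. The gate required MHC class II, which presents peptides to helper T cells and which the gate for monocytic suppressor cells (M-MDSCs) excluded. Blood monocytes are also a source of the macrophages found in tumors.

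Library titles began with GAR4079 or PAT4694, a prefix treated here as a library series. All 3 H MONO libraries and 4 of the 8 C MONO libraries carried GAR4079, and the other 4 C MONO libraries carried PAT4694. The counts on genes in the GAR4079 C MONOs were 41412269 (GAR4079A58), 36689470 (GAR4079A56), 44362223 (GAR4079A57) and 46120634 (GAR4079A55). The PAT4694 C MONOs held 23294900 (PAT4694A1), 19130545 (PAT4694A2), 27273310 (PAT4694A54) and 26065108 (PAT4694A52). The H MONOs held 47962042 (GAR4079A52), 45008262 (GAR4079A53) and 34302971 (GAR4079A54). Each PAT4694 library was shallower than each GAR4079 library, and among C MONOs the series differed in depth at p = 0.0286 (two-sided exact permutation test, n = 4 and 4, the smallest p that 70 divisions allow, Benjamini-Hochberg adjusted p = 0.0714 over 5 measures). Between C MONOs and H MONOs the same test gave p = 0.182 (exact permutation test, n = 8 and 3, adjusted p = 0.343).

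At least 10 counts were reached by 11097 to 12143 genes in C MONOs (median 11656) and by 12195, 11895 and 11956 genes in the H MONOs. With every library thinned to the depth of the shallowest, the numbers were 10865 to 11277 (median 11083) in C MONOs and 11195, 10900 and 11293 in H MONOs. The groups overlapped on both counts. The 10 most abundant genes took 12.6 to 15.5% of the counts in C MONOs (median 14.3%) and 12.4, 14.7 and 13.3% in H MONOs, and the same gene was the most abundant in 11 of 11 libraries. No difference between C MONOs and H MONOs was detected in the 5 quality measures, with adjusted p from 0.343 to 0.594 (exact permutation tests, n = 8 and 3).

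The sorted identity was examined with genes that parted the lineages elsewhere in the series. The files give genes by Ensembl number and pair none with a name, so marker genes were not analysed here. A monocyte-restricted list of 50 genes was taken from M-MDSCs against H PMNs, and a neutrophil-restricted list of 18 genes from H PMNs against M-MDSCs, each at least 50-fold apart. The monocyte-restricted list took 9.06 to 12.02% of the counts in C MONOs (median 10.9%) and 9.03, 10.5 and 9.65% in H MONOs. Its summed level was 236 to 486 CPM (counts scaled to library size) in H PMNs, and no member was at 0 counts in any of the 11 monocyte libraries. Of its 50 members, 5 were higher and 1 was lower in C MONOs at an unadjusted p under 0.05, where 4.31% of all 12566 genes tested were higher and 3.16% lower. Their median log2 fold change was 0.10, against 0.01 over all genes tested. Within GAR4079 the median was 0.08, with 2 of the 50 higher and 1 lower before adjustment, against 355 and 252 of 12198 genes. With PAT4694 C MONOs alone the median was 0.11, with 7 of the 50 higher and 3 lower before adjustment, against 746 and 724 of 11759 genes.

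The neutrophil-restricted list summed to 10.5 to 102 CPM in C MONOs (median 49.1) and to 30.4, 40.1 and 31.0 CPM in H MONOs, against 9959 to 13869 CPM in H PMNs. Its highest sums were in GAR4079A55 (102 CPM) and PAT4694A1 (85.3 CPM) and its lowest in PAT4694A54 (10.5 CPM). PAT4694A54 was below every H MONO, GAR4079A56 (38.5 CPM) was within their range, and all other C MONOs were above the highest H MONO. The most abundant member was at 1.98 to 39.8 CPM in C MONOs and 7.58 to 14.6 CPM in H MONOs, and up to 4 of the 18 members were at 0 counts in a monocyte library. The median log2 fold change of the list was 0.91 with 13 of 18 members above 0, against 6485 of 12566 genes tested. Of the 18, 1 member was higher and 0 were lower at an unadjusted p under 0.05 with edgeR's quasi-likelihood test. By the same test 0 of the 18 reached a false discovery rate (FDR) of 0.05. Within GAR4079 the median was 0.86, and 2 of the 18 members were higher before adjustment, against 355 of 12198 genes. With PAT4694 C MONOs alone the median was 0.59, and 1 of 16 members tested was higher before adjustment, against 746 of 11759 genes. The part of neutrophil RNA in the differences below was not tested.

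Over all expressed genes a separation of the groups was not detected. Distances were taken between libraries on log2 CPM after TMM scaling. Pairs within C MONOs lay 141 ± 13.1 apart (SD, 28 pairs), pairs within H MONOs 111 ± 5.37 (SD, 3 pairs) and C MONO to H MONO pairs 133 ± 14.8 (SD, 24 pairs). Group membership took 11.8% of the variance, with a pseudo-F (variance between over variance within groups) of 1.20 (exact permutation test, n = 8 and 3, p = 0.121, adjusted p = 0.162 over 4 comparisons). Within GAR4079 the pseudo-F was 1.17 (exact permutation test, n = 4 and 3, p = 0.171, adjusted p = 0.171, where 0.0286 is the smallest p that 35 divisions allow). For the PAT4694 C MONOs against the H MONOs, which also differ in series, it was 1.48 (n = 4 and 3, exact permutation p = 0.0286, adjusted p = 0.0571). Between the series within C MONOs it was 1.23 (n = 4 and 4, exact permutation p = 0.0286, adjusted p = 0.0571). Both p-values were the smallest that the divisions allow.

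**Figure D1:**
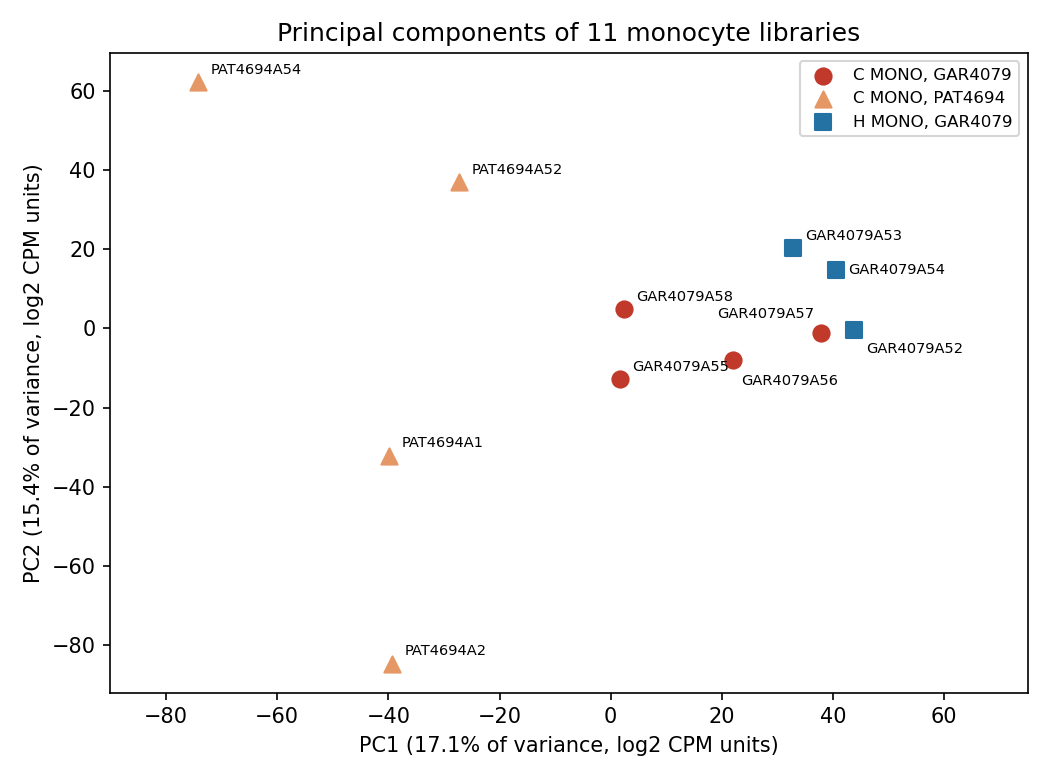
Principal components 1 and 2 of log2 CPM in the 11 monocyte libraries, with 17.1% and 15.4% of the variance on the axes. Circles are C MONOs of GAR4079, triangles C MONOs of PAT4694 and squares H MONOs, and GAR4079A57 at 37.8 on the first axis lies among the H MONOs, which span 32.7 to 43.8.

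PAT4694 libraries lay far from the healthy group and from each other, and GAR4079A57 was the C MONO library closest to the healthy group. From the H MONO centroid the GAR4079 C MONOs were 104 (GAR4079A58), 110 (GAR4079A56), 88.0 (GAR4079A57) and 105 (GAR4079A55) away. The PAT4694 C MONOs were 126 (PAT4694A1), 135 (PAT4694A2), 136 (PAT4694A54) and 126 (PAT4694A52) away. All 4 PAT4694 values exceeded all 4 GAR4079 values, but pairs within the PAT4694 C MONOs were 153 ± 7.39 apart (SD, 6 pairs), more than PAT4694 C MONOs were from H MONOs (145 ± 5.30, SD, 12 pairs). The nearest library of GAR4079A57 was the H MONO GAR4079A52 at a distance of 100.1, and that of PAT4694A54 was also an H MONO (GAR4079A53, 148 away). Which group the C MONOs lay nearer to depended on the measure. By centroid, which favors the larger group, only GAR4079A57 of the 8 was nearer to the H MONOs (88.0, against 97.4 to the other C MONOs). By mean distance, which favors the tighter group, every C MONO library except PAT4694A1 was. Without GAR4079A57 the pseudo-F was 1.32 (exact permutation test, n = 7 and 3, p = 0.05). This was the largest value with a single library left out (range 0.959 to 1.32). Leaving out the C MONO closest to the healthy group favors a separation, so the value is no separate test.

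Between C MONOs and H MONOs, no gene passed an FDR of 0.05 in edgeR's quasi-likelihood test (0 of 12566 tested, 0%), and the smallest FDR was 0.0752. An unadjusted p under 0.05 was reached by 938 genes (7.46% of those tested), 541 of them higher in C MONOs (4.31%) and 397 lower (3.16%). The balance of directions depended on the fit, with 630 higher and 916 lower in limma voom, 705 and 693 without a count filter, and 321 and 334 without the H MONO GAR4079A54. The higher genes had a median log2 fold change of 0.97, and 262 of the 541 differed at least 2-fold. The lower genes had a median of −0.77, and 137 of the 397 differed at least 2-fold. Over all genes tested the median standard error of the log2 fold change was 0.34, and the common biological coefficient of variation was 0.506. In a bulk population, fewer cells with a transcript and less of it per cell cannot be told apart.

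Part of the higher genes were at 0 counts in the healthy group. For 30 of the 541, all 3 H MONO libraries held 0 counts, while the C MONOs together held 27 to 363. Over all genes tested there were 31 such genes, and since they pass the count filter through the C MONOs alone, the filter leaves them little room not to be higher. With these set to the bound that a floor of 3 counts over the H MONO group gives, the median log2 fold change of the 541 genes was again 0.97, as it had to be, because their bounds also lie above the median. No lower gene was at 0 counts in all 8 C MONOs. By level, 53.4% of the higher genes and 59.4% of the lower genes were above 10 TPM (transcript abundance scaled to gene length and library size, median of the 11 libraries), against 44.7% of all genes tested.

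Groups did not overlap in CPM for 99 higher genes (0.788% of those tested) and 111 lower genes (0.883%). With a difference of at least 2-fold as well, 34 genes were higher (0.271%) and 43 were lower (0.342%). These 34 had a median log2 fold change of 1.53 and a median level of 4.24 TPM, and the 43 lower genes had −1.48 and 1.64 TPM. The numbers rest on single libraries. Without GAR4079A57 they were 65 higher and 110 lower, and without GAR4079A56 they were 55 and 62. Without an H MONO library they were 105 and 118 (GAR4079A52), 98 and 179 (GAR4079A53) or 92 and 109 (GAR4079A54), since fewer libraries overlap less often.

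The other tests differed in what they called at an FDR of 0.05. DESeq2 called 58 genes (0.462%), 42 higher and 16 lower, and gave 1152 an unadjusted p under 0.05 (9.17%). The likelihood ratio test of edgeR called 29 (0.231%), 13 higher and 16 lower, and its exact test 24 (0.191%), 8 higher and 16 lower, with 1007 (8.01%) and 929 (7.39%) before adjustment. Limma voom with quality weights called 0 (0%), with 1546 before adjustment (12.3%). All of DESeq2, the likelihood ratio test and the exact test called 20 genes, 8 higher and 12 lower. For 17 of the 20, the C MONOs and H MONOs did not overlap, against 210 of all 12566 genes tested (1.67%). The 20 were called on these same libraries, so their lack of overlap is no separate test. In the quasi-likelihood test the FDR of the 20 ran from 0.0752 to 0.491.

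With GAR4079 titles alone, 4 C MONOs were compared with the same 3 H MONOs. No gene passed an FDR of 0.05 in edgeR's quasi-likelihood test (0 of 12302, 0%), and 614 had an unadjusted p under 0.05 (4.99%), 359 higher (2.92%) and 255 lower (2.07%). At an FDR of 0.05, 60 genes were called by DESeq2 (0.488%), 48 by the likelihood ratio test (0.39%), 35 by the exact test (0.285%) and 0 by limma voom (0%). Before adjustment these tests gave 745 (6.06%), 700 (5.69%), 656 (5.33%) and 1158 (9.41%). In 11 of the 60 DESeq2 calls, 9 of the 48 likelihood ratio calls and 6 of the 35 exact test calls, 1 library held over 50% of the CPM. DESeq2 gave no FDR for 48 of the 12302 genes. Groups did not overlap for 331 higher (2.69%) and 330 lower genes (2.68%), of which 117 (0.951%) and 115 (0.935%) differed at least 2-fold. Of the 35 divisions of 4 and 3 libraries, 1 parts them in a given direction, a share of 0.0286. The shares of genes without overlap are thus no larger than random labels would give. The 614 genes before adjustment (4.99%) are likewise no more than a threshold of 0.05 gives where nothing differs. Genes called by DESeq2, the likelihood ratio test and the exact test together numbered 32. Of these, 7 were among the 20 of all libraries (4 higher and 3 lower), or 7 of 32 and 7 of 20.

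Of the 938 differences, 374 stayed with GAR4079 titles alone, in that they had the same direction and an unadjusted p under 0.05. They comprised 227 of the 541 higher genes (42.0%) and 147 of the 397 lower genes (37.0%). Of the higher genes at 0 counts in all 3 H MONOs, 10 were tested in GAR4079 and all 10 stayed. The count filter left these 10 little room not to stay, and no lower gene was in that position, so the shares are not alike. The comparisons share all 3 H MONO and 4 of the C MONO libraries, so direction carries little and the number that stayed is no independent test. In GAR4079, 493 of the higher and 393 of the lower genes could be tested, all with their direction unchanged, while 48 and 4 fell under the count filter. None of the 374 passed an FDR of 0.05 there, the smallest being 0.573. In GAR4079 the 493 higher genes had a median log2 fold change of 0.73 and the 393 lower genes one of −0.64.

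Among genes whose groups did not overlap and differed at least 2-fold, 28 of the 34 higher (82.4%) and 31 of the 43 lower (72.1%) had an unadjusted p under 0.05 in GAR4079, where 604 of all 12566 genes (4.81%) had one with the same direction. These genes were chosen on values that include all GAR4079 libraries, so they are without overlap in GAR4079 by construction, and their p there is no separate test. The 20 genes that DESeq2, the likelihood ratio test and the exact test all called were likewise chosen on fits that include these libraries, and their unadjusted p in the GAR4079 quasi-likelihood test was at most 0.0121.

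**Figure D2:**
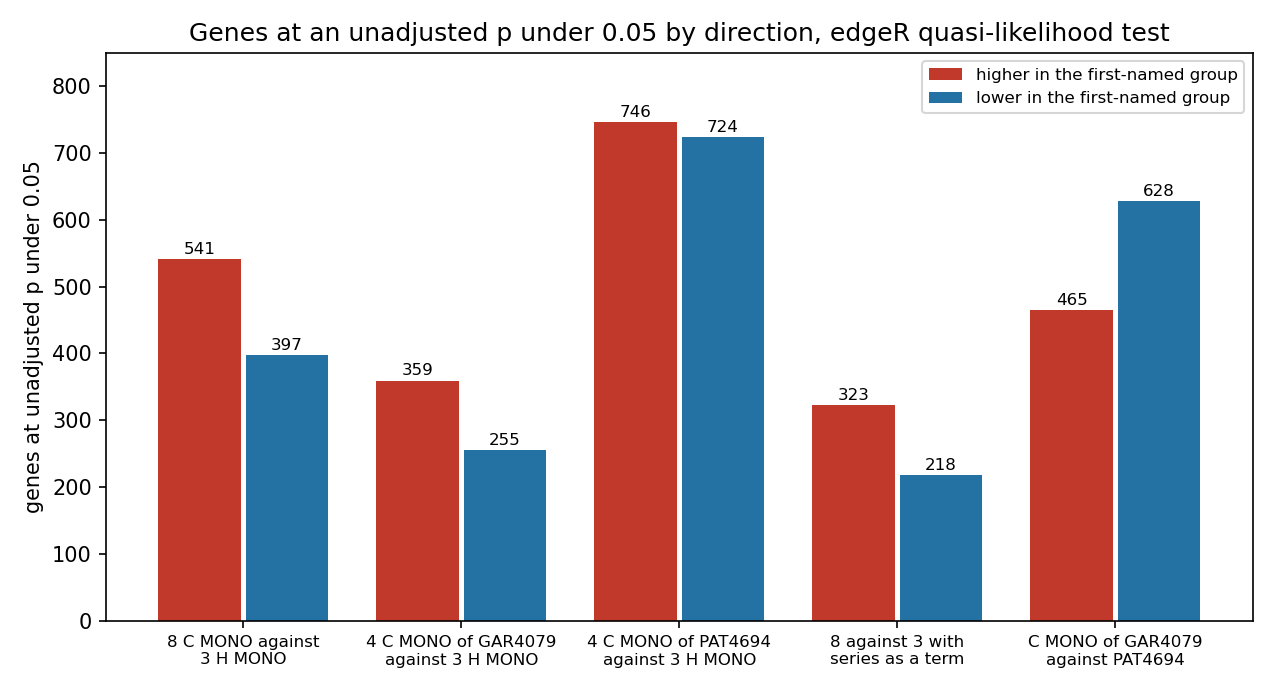
Number of genes at an unadjusted p under 0.05 in edgeR's quasi-likelihood test (bars, from 0), by direction, for C MONOs against H MONOs with all libraries, with either series of C MONOs, with series as a term, and for the series against each other within C MONOs. The numbers were 541 higher and 397 lower with all libraries, 359 and 255 with GAR4079 C MONOs, and 746 and 724 with PAT4694 C MONOs.

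ENSCAFG00000031957 had the smallest p of all genes tested and was lower in C MONOs. Its CPM was 6.86 (GAR4079A52), 3.29 (GAR4079A53) and 1.69 (GAR4079A54) in H MONOs, from 329, 148 and 58 counts. In C MONOs its CPM was 0.135 to 0.515 with a median of 0.242, from 4 to 14 counts. Each C MONO library was below each H MONO library, and the GAR4079 C MONOs, at 0.169, 0.245, 0.135 and 0.239 CPM, were no nearer to the H MONOs than the PAT4694 C MONOs. The log2 fold change was −3.77 (standard error 0.52, edgeR quasi-likelihood FDR 0.0752). With GAR4079 titles alone it was −4.27 (standard error 0.60, unadjusted p 4.66e-05, FDR 0.573). Over 21 alternatives the FDR ran from 3e-07 (likelihood ratio test) to 1 (all 40 libraries), with 0.0328 without GAR4079A57 and 0.828 without the H MONO GAR4079A52. In M-MDSCs, also CD14+ cells of tumor-bearing dogs, the CPM was 6.99, 0.213, 0.156, 0.721 and 9.72, so that 2 of the 5 libraries were at H MONO levels or above.

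ENSCAFG00000004342 was the other lower gene taken by the naming rule. H MONOs held 29.7, 36.5 and 18.1 CPM, and C MONOs 3.14 to 10.6 CPM with a median of 7.74. The lowest C MONO value was in GAR4079A55 and the highest in GAR4079A58, and none reached the lowest H MONO. The log2 fold change was −1.94 (standard error 0.33, edgeR quasi-likelihood FDR 0.295), and in GAR4079 alone −1.85 (standard error 0.42, unadjusted p 0.00154, FDR 0.705). The FDR ran from 0.000208 to 1 over 21 alternatives. Levels were alike in both series of C MONOs, at 7.65 ± 3.24 CPM (SD, n = 4) in GAR4079 and 6.82 ± 1.79 CPM (SD, n = 4) in PAT4694. The M-MDSCs, at 5.00 to 19.0 CPM, lay between and partly over both groups.

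ENSCAFG00000014965 was higher in C MONOs. It was at 1.11, 0.622 and 1.95 CPM in H MONOs and at 3.87 to 15.9 CPM in C MONOs, with a median of 7.98. The groups did not overlap, and both series of C MONOs spanned a similar range, 3.87 to 13.8 CPM in GAR4079 and 6.14 to 15.9 CPM in PAT4694. The log2 fold change was 2.96 (standard error 0.58, edgeR quasi-likelihood FDR 0.327), and in GAR4079 alone 2.76 (standard error 0.63, unadjusted p 0.00156, FDR 0.705). Its FDR over 21 alternatives ran from 1.2e-05 to 1. In M-MDSCs the gene was at 1.19, 25.7, 8.21, 7.21 and 5.01 CPM, where 1 library was within the H MONO range and the others were above it.

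ENSCAFG00000002235 was nearly undetected in H MONOs. The 3 H MONO libraries held 1, 1 and 0 counts, and the C MONOs 13 to 96 counts, or 0.354 to 3.52 CPM with a median of 1.143. All 8 C MONOs were above the H MONOs, and the PAT4694 C MONOs, at 1.20, 2.25, 3.52 and 2.84 CPM, were all above the GAR4079 C MONOs, at 0.435, 0.354, 0.451 and 1.08 CPM. Pooled over libraries the ratio of C MONOs to H MONOs was 82.3 (exact 95% counting interval 22.6 to 683), which covers counting error only. With GAR4079 titles alone it was 38.1 (exact 95% counting interval 10.3 to 319). The quasi-likelihood FDR was 0.301 with all libraries and 0.705 in GAR4079 (unadjusted p 0.000714), within a range of 0.000664 to 1 over 21 alternatives. With 2 counts over the H MONOs the gene passed the count filter through the C MONOs alone, which leaves little room for it not to be higher. Between the series within C MONOs, the log2 fold change of GAR4079 against PAT4694 was −2.05 (standard error 0.59, unadjusted p 0.00586, FDR 0.309 from edgeR). In M-MDSCs the counts were 21, 0, 1, 1 and 0.

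**Figure D3:**
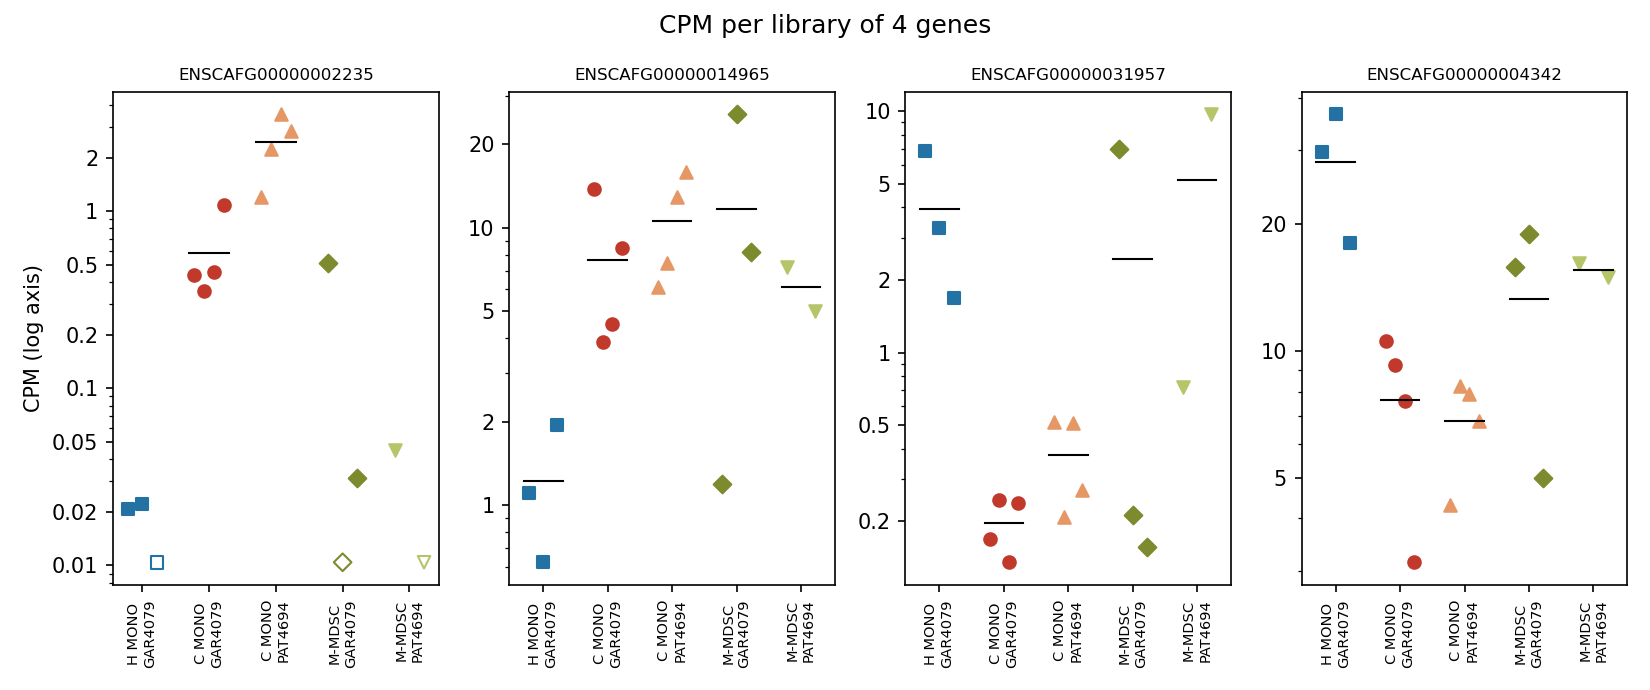
CPM on a log axis of the 4 named genes in each H MONO, C MONO and M-MDSC library, by library series, with horizontal lines at group means where no library was at 0. Open symbols are libraries at 0 counts, drawn below the lowest value. C MONOs and H MONOs do not overlap for any of the 4 genes, and for ENSCAFG00000002235 the PAT4694 C MONOs, from 1.20 CPM upward, lie above the GAR4079 C MONOs.

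The PAT4694 C MONOs alone differed from the H MONOs more often than did the GAR4079 C MONOs. The quasi-likelihood test called 23 genes at an FDR of 0.05 (0.196% of 11759), while 1470 reached an unadjusted p under 0.05 (12.5%), 746 higher (6.34%) and 724 lower (6.16%). Series and disease state cannot be told apart in that comparison, because no H MONO library was in PAT4694. With the series as a term in the fit of all 11 libraries, edgeR's quasi-likelihood test called 0 genes (0%), with 541 at an unadjusted p under 0.05 (4.31%), 323 higher (2.57%) and 218 lower (1.73%). Of the 541 higher and 397 lower genes without the term, 251 and 138 kept their direction and an unadjusted p under 0.05 with it. In that fit the effect of disease state rests on the GAR4079 libraries, because PAT4694 holds no H MONO. For ENSCAFG00000014965 the log2 fold change was 2.75 with the term and 2.76 with GAR4079 titles alone. The fit with the term is therefore no separate test beside the GAR4079 comparison.

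Within C MONOs, the same quasi-likelihood test called 0 of 11645 genes between GAR4079 and PAT4694 (0%), with a smallest FDR of 0.0553 and 1093 genes under 0.05 before adjustment (9.39%), 465 higher in GAR4079 (3.99%) and 628 lower (5.39%). Limma voom called 5 genes, and 202 passed in DESeq2. Leaving out GAR4079A56, GAR4079A57 or PAT4694A2 gave 2 genes each, and leaving out PAT4694A1 gave 1. Among the 541 genes higher in C MONOs, 77 of the 502 tested differed between the series at an unadjusted p under 0.05, and in 70 of the 77 the PAT4694 libraries were the farther from the H MONOs. Among the 397 lower genes it was 45 of 377 tested, and 42 of the 45. The same held for most genes that differed between the series, 883 of 1093, so it was not particular to the higher and lower genes.

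GAR4079A57 was often the C MONO library closest to the healthy values. It had the highest level of the 8 C MONOs in 191 of the 397 lower genes (48.1%), against 17.3% of all genes tested. In the higher genes it had the lowest level of the 8 in 187 of 541 (34.6%), against 9.81% of all genes tested. The next most frequent in both was GAR4079A56, with 55 lower genes (13.9%, against 16.7% of all genes tested) and 80 higher genes (14.8%, against 9.45%). Without GAR4079A57 the quasi-likelihood test called 6 genes (0.0481% of 12462), all lower in C MONOs, with FDRs from 0.0178 to 0.0328. Before adjustment 1217 were under 0.05 (9.77%). With any other single library left out, 0 genes were called. GAR4079A57 was the highest C MONO in 5 of the 6 genes, so their calls without it are no separate test. ENSCAFG00000031957 was among these 6, and 4 of them belonged to the 20 called by DESeq2, the likelihood ratio test and the exact test. In 2 of the 6, GAR4079A57 reached the lowest H MONO. Without GAR4079A57, the GAR4079 libraries gave 1 gene (0.00828% of 12079), lower in C MONOs, and 1043 before adjustment (8.63%). Of the 938 differences, which were taken with GAR4079A57 included, 491 stayed in that fit. Leaving out the C MONO closest to the healthy group favors a larger number, so the 491 are no separate test.

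Gene length differed between higher and lower genes in a way that depended on the set. Relative gene length was taken as counts over TPM, with the median gene tested at 1. It was 0.857 at the median of the 541 higher genes and 1.07 at that of the 397 lower genes. For genes without overlap and at least 2-fold apart it was 0.930 (higher) and 0.927 (lower), and for those called by DESeq2, the likelihood ratio test and the exact test it was 0.754 and 0.635, where the higher genes were the longer. Across length classes of 5 equal parts, the median log2 fold change was 0.10 in the shortest and −0.03 in the longest. The longest class exceeded the shortest by 0.917 to 1.49 log2 CPM in C MONOs (median 1.26) and by 1.28, 1.15 and 1.48 log2 CPM in H MONOs. The lowest values were in GAR4079A58 and GAR4079A55, and the groups overlapped (exact permutation test, n = 8 and 3, p = 0.594, adjusted p = 0.594). The part of length in the differences was not tested.

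In neutrophils of the same study, C PMNs (n = 10) and H PMNs (n = 5) gave a counterpart contrast. The labels give more C PMN libraries than the study states, and which of them it left out is not known. All H PMNs were of GAR4079 while the C PMNs held both series, and the fit had no term for series, so series and disease state are mixed in neutrophils as in monocytes. The effect of disease state in monocytes was set against that in neutrophils in a fit of all 40 libraries. The labels name no dog, so the fit treated libraries as independent, although the study compares populations of the same patient. The difference between the effects passed an FDR of 0.05 for 0 of 14467 genes with edgeR's quasi-likelihood test (0%). Before adjustment 600 were under 0.05 (4.15%), 248 of them with a higher log2 fold change in monocytes than in neutrophils (1.71%) and 352 with a lower one (2.43%). The 4 named genes were chosen for their difference in monocytes, so their interactions are no separate test. ENSCAFG00000002235 was at 3 counts over 10 C PMN libraries and 11 counts over 5 H PMN libraries. Its interaction had an unadjusted p of 0.000451 (FDR 0.621 from edgeR), which the choice of the gene and its few counts outside C MONOs largely fixed beforehand. ENSCAFG00000004342 was at 1.75 ± 1.41 CPM (SD, n = 10) in C PMNs and 0.894 ± 0.789 CPM (SD, n = 5) in H PMNs, with an interaction of −3.64 on the log2 scale (standard error 1.71, unadjusted p 0.0394, FDR 0.99999 from edgeR). ENSCAFG00000014965 and ENSCAFG00000031957 had interactions with an unadjusted p of 0.169 and 0.164 (FDR 0.99999 for both from edgeR). None of the 4 genes passed an FDR of 0.05 for a difference between monocytes and neutrophils in its response.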

How the data were processed

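RNA of sorted cells was sequenced as read pairs after Smart-seq2 and Nextera XT preparation, which does not mark strand, so overlapping antisense genes cannot be told apart. The authors aligned reads with HISAT2 to CanFam3.1 plus spike-in sequences, marked duplicates with Picard 1.92, and made the deposited count table with featureCounts (Subread 1.5.0). The deposited CPM values are counts scaled to a library's total, and the deposited TPM values were also made by the authors. From the counts of 24580 genes, those passing filterByExpr were tested in edgeR 4.0.16 (TMM, quasi-likelihood, Benjamini-Hochberg FDR at most 0.05), with DESeq2 1.42.0 and limma 3.58.1 as alternatives (R 4.3.3). Tests of genes and of quality measures were two-sided, and the pseudo-F test counted divisions with a value at least as large. Simulated data were run for C MONOs against H MONOs with all libraries and with GAR4079 alone. The fits with a series term, between the series and of all 40 libraries were not simulated. Distances used log2 CPM with a prior count of 2, and exact permutation tests ran in Python 3.11.15 (numpy 2.4.6, scipy 1.17.1, pandas 2.3.3, matplotlib 3.10.9). A difference stayed in GAR4079 if its direction was the same and its unadjusted p under 0.05. Named genes were the 2 higher and 2 lower with the smallest p among those at least 2-fold apart without overlap. Of 24580 IDs, 0 matched a name in RefSeq's table (UU_Cfam_GSD_1.0), so symbol lists were not applied. Each list held up to 50 genes at a mean of at least 50 CPM in its own population, at least 50-fold above the other without overlap. Members and lists were chosen with earlier results of these data known.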

Additional observations from a re-analysis of the deposited data

Results flagged for a closer look

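Over the 8 C MONO libraries, 16 measures were examined for a library standing apart from the rest by Dixon's criterion (depth, detected genes, shares of abundant genes, length contrast, distances, principal components, list levels and the 4 named genes), and 0 of the 16 held one. Spike-in counts were 0 to 13 in C MONOs and 11, 21 and 0 in H MONOs, and no C MONO library exceeded the highest H MONO in their share of counts.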

How the results depend on the processing

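The number of genes at an FDR of 0.05 between C MONOs and H MONOs was 0 with edgeR's quasi-likelihood test (938 at an unadjusted p under 0.05) and changed to 58 with DESeq2, 29 with the likelihood ratio test, 24 with the exact test and 23 with PAT4694 C MONOs alone, and ran from 0 to 6 with single libraries left out. At an unadjusted p under 0.05, the number of 938 changed to 1546 with limma voom (40.8% higher, against 57.7%), 415 with all 40 libraries in the fit, 541 with series as a term, 614 with GAR4079 alone and 1470 with PAT4694 C MONOs alone, and ran from 655 to 1217 with libraries left out. Between the series within C MONOs, 0 genes changed to 202 with DESeq2, 5 with limma voom, 9 without a filter, 7 with at least 10 counts in every library and 2 after thinning to the lowest depth, and ran from 0 to 2 with libraries left out. The 374 differences that stayed in GAR4079 became 791 with limma voom in both fits, and ran from 251 to 491 with libraries left out of the GAR4079 fit alone. The pseudo-F of 1.20 was 1.40 on log2(TPM + 1) (p = 0.0727) and 1.33 on the 500 most variable genes (p = 0.0848), and ran from 0.959 to 1.32 with libraries left out (1.32 without GAR4079A57, p = 0.05). Genes without overlap and at least 2-fold apart ran from 37 to 105 (higher) and 47 to 179 (lower) with libraries left out. In 84 alternatives for the 4 named genes, 70 stayed above an FDR of 0.05 and 14 passed it. Their direction was not a test, since they were chosen for groups without overlap. With libraries left out, the log2 fold change ran from 2.64 to 3.39 for ENSCAFG00000014965, from −4.16 to −3.11 for ENSCAFG00000031957 and from −2.22 to −1.69 for ENSCAFG00000004342, and the list medians from 0.64 to 1.07 (neutrophil-restricted) and 0.01 to 0.13 (monocyte-restricted). Thinning, the alternatives for the 374, for the lists and for genes without overlap were chosen after seeing the data. The causes were not tested. No paired analysis applied, because C MONOs came from tumor-bearing dogs and H MONOs from other, healthy dogs. With 3 H MONO libraries in GAR4079 and none in PAT4694, the effect of series on healthy monocytes cannot be seen, and genes of low level rest on few counts.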
